A study of Caenorhabditis elegans with 12 samples.

Results

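The genes described here are those that the deposited tables place on the X chromosome of Caenorhabditis elegans, without the members of large gene families. They were chosen by the chromosome given for each gene, leaving out genes whose names start with the prefix of a large family or of a separately studied gene group, such as nhr- (nuclear hormone receptors), col- (collagens) or flp- (FMRFamide-like neuropeptides). Of 20222 genes listed, 2777 lie on the X chromosome, 214 of these were left out by name, and 2563 remained. Of these, 1019 carry a gene name and the others a sequence name only. The rule used no measured value.

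Polyadenylated RNA was sequenced from whole animals at day 1 of adulthood, grown at 20 °C on E. coli OP50 and picked at the last larval stage, in 4 strains with 3 libraries each. The mutant strains were AV157, which carries spo-11(me44), TY4986, which carries htp-3(y428), and AV477, which carries dsb-2(me96). They were compared with N2, the laboratory wild type. SPO-11 cuts DNA to start meiotic recombination, HTP-3 is a protein of the meiotic chromosome axis, and DSB-2 promotes break formation. All 3 mutated genes are autosomal (spo-11 on IV, htp-3 on I, dsb-2 on II). Each mutation was present in 1 strain, so an effect of the mutation and other differences of that strain cannot be told apart. The series text calls the libraries of a strain biological replicates, and the strains are named below by their mutated gene.

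In hermaphrodites both X chromosomes are kept largely silent in dividing and early meiotic germ cells and become more active late in oogenesis, and genes used mainly in the germline are scarce on the X. In somatic cells a dosage compensation complex related to condensin binds both X chromosomes and lowers their transcription. In whole animals, fewer cells of a type and less RNA per cell cannot be told apart.

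Levels are given in TPM, in which reads per exon length are scaled so that each library has the same sum. Mapped reads, rebuilt from the deposited values, ranged from 32422219 to 42527086 per library. The htp-3 transcript had 6.67 to 12.3 TPM in htp-3 libraries and 67.9 to 77.9 TPM in N2 libraries, and the dsb-2 transcript had 17.4 to 20.1 TPM in dsb-2 libraries and 55.4 to 62.5 TPM in N2 libraries. The spo-11 transcript had 33.7 to 37.9 TPM in spo-11 libraries and 24.5 to 45.9 TPM in N2 libraries, so its level does not check that label. Of 30 germline marker genes from any chromosome, 24 were called lower in spo-11 and 25 in htp-3, with none higher. Their summed level was 4353 to 5227 TPM in spo-11, 4177 to 8878 TPM in htp-3, 14745 to 19603 TPM in dsb-2 and 11970 to 12222 TPM in N2 libraries. Of 36 tested sperm markers, 35 were called higher and 0 lower in spo-11, and 26 higher and 1 lower in htp-3. Their sum over 37 listed genes was 3979 to 7338 TPM in spo-11, 217 to 756 TPM in htp-3, 52.02 to 212 TPM in dsb-2 and 56.1 to 342 TPM in N2 libraries. No gene of these marker lists was at 0 in all 12 libraries. The part of these shifts in the results that follow was not tested.

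The X chromosome genes held a larger share of all TPM in spo-11 and htp-3 animals than in N2 animals, while dsb-2 animals were within the range of N2 or just below it. The share was 8.11%, 7.66% and 7.32% in the spo-11 libraries, 6.77%, 5.37% and 6.03% in the htp-3 libraries and 3.38%, 3.25% and 3.07% in the dsb-2 libraries, against 3.21%, 3.65% and 3.26% in the N2 libraries. Each spo-11 library was above each htp-3 library, and each htp-3 library was above each library of dsb-2 and N2. The mean was 7.70 ± 0.396% in spo-11, 6.06 ± 0.697% in htp-3, 3.23 ± 0.156% in dsb-2 and 3.37 ± 0.243% in N2 (SD, n = 3 each). The ratio of means was 2.28 for spo-11 over N2, 1.79 for htp-3 over N2, 0.958 for dsb-2 over N2 and 0.787 for htp-3 over spo-11. A two-sided exact permutation test of the share gave p = 0.1 for spo-11 against N2, for htp-3 against N2 and for htp-3 against spo-11, which is the smallest value that 3 libraries against 3 can give, and p = 0.5 for dsb-2 against N2.

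Fewer of these genes were listed at 0 in the strains with the larger share. Of the 2563 genes, 137, 203 and 178 were at 0 TPM in the spo-11 libraries, 296, 319 and 278 in the htp-3 libraries and 474, 432 and 412 in the dsb-2 libraries, against 446, 390 and 386 in the N2 libraries. The exact permutation p was again 0.1 for spo-11 and for htp-3 against N2, and 0.3 for dsb-2 against N2. A count of genes at 0 over all genes or autosomal genes is not given here. Whether the fall in genes at 0 is particular to the X chromosome was therefore not tested. Among the genes tested below, the median level was 10.3 ± 0.962 TPM in spo-11, 6.27 ± 0.470 TPM in htp-3, 3.70 ± 0.506 TPM in dsb-2 and 3.64 ± 0.732 TPM in N2. The median over autosomal genes tested was 19.5 ± 1.499 TPM in spo-11, 14.7 ± 1.74 TPM in htp-3, 10.1 ± 1.15 TPM in dsb-2 and 9.74 ± 1.49 TPM in N2 (SD, n = 3 each).

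**Figure D1:**
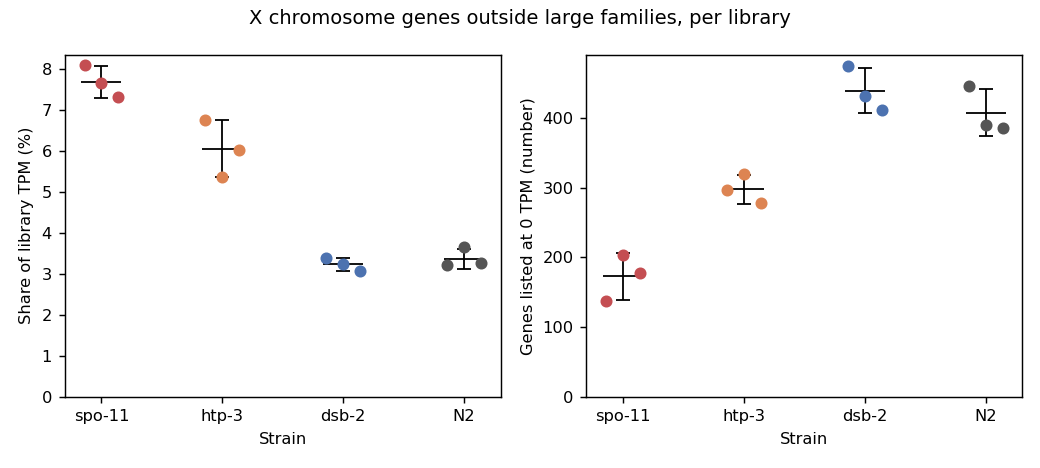
The left panel plots the share of each library's TPM held by the X chromosome genes outside large families, in percent, and the right panel the number of these genes listed at 0 TPM. Each point is a library, the horizontal line is the mean and the bar is the SD of 3 libraries. The spo-11 libraries lie between 7.32% and 8.11% and the htp-3 libraries between 5.37% and 6.77%, above all dsb-2 and N2 libraries.

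Per gene, most X chromosome genes were higher in spo-11 and in htp-3 than in N2, and few were lower. A gene was tested where at least 3 of the 12 libraries had 1 TPM or more. The test was limma on log2(TPM + 1), with p-values adjusted over all 13650 genes tested and a gene called at an adjusted p under 0.05. This filter kept 1721 of the 2563 genes. The 842 genes not tested include 54 at 0 in all libraries, and none had a mean over the 12 libraries above 0.813 TPM. In spo-11, 1389 of the 1721 genes were called higher and 61 lower, where 55.6% of all genes tested were called higher and 22.1% lower. The median log2 fold change, on the log2(TPM + 1) scale, was 1.198 over these genes, 0.61 over autosomal genes and 0.80 over all genes tested. Of 11777 autosomal genes tested, 6071 were called higher and 2942 lower.

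In htp-3, 1080 of the 1721 X chromosome genes were called higher and 67 lower, with 39.5% of all genes tested called higher and 19.7% lower. The median log2 fold change against N2 was 0.64 over these genes, 0.19 over autosomal genes and 0.27 over all genes tested. Autosomal genes were called higher in 4212 cases and lower in 2612 of the 11777. Both comparisons share the N2 libraries. Called in spo-11 and in htp-3 alike were 1029 X chromosome genes higher and 36 lower, and 6 were called in opposite directions. Called higher were 80.7% of these genes in spo-11 and 62.8% in htp-3. A joint count over all genes tested is not given here, so whether the overlap is particular to these genes was not tested. The 140 tested X chromosome genes left out by family name had 112 called higher and 7 lower in spo-11, with a median of 1.35, and 94 higher and 5 lower in htp-3, with a median of 0.82.

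The counts of lower genes are less firm than those of higher genes. Without N2 replicate 2 the 61 genes lower in spo-11 became 39, and without spo-11 replicate 3 they became 40. Without htp-3 replicate 1 the 67 genes lower in htp-3 became 35. Scaling the libraries by the median of ratios over all genes gave 1073 higher and 193 lower in spo-11, and 836 higher and 178 lower in htp-3. That scaling brought the median of all genes tested to 0.26 in spo-11 and 0.10 in htp-3, and the median of the X chromosome genes to 0.67 and 0.41 in the same order. Genes with an N2 mean under 1 TPM could not pass the filter on the N2 libraries alone. Of the 1265 X chromosome genes with at least 1 TPM in N2, 950 were called higher and 59 lower in spo-11, and 771 higher and 67 lower in htp-3. Among 8782 autosomal genes with that level, 3181 were called higher and 2936 lower in spo-11, and 2694 higher and 2603 lower in htp-3.

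By chromosome, the median log2 fold change of all X chromosome genes tested was 1.21 in spo-11, next to 1.12 on chromosome V, 0.86 on IV, 0.67 on II, 0.10 on I and 0.08 on III. In htp-3 the medians were 0.65 on X, 0.49 on V, 0.26 on IV, 0.19 on II, -0.04 on I and -0.05 on III. The X chromosome also had the smallest percentage of genes called lower, 3.65% in spo-11 and 3.87% in htp-3, and each autosome was between 17.4% and 32% in spo-11 and between 15.8% and 27.1% in htp-3. No test was run between chromosomes.

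The X chromosome genes and the autosomal genes parted by their level in N2. Genes under 1 TPM in N2 needed libraries of other strains to pass the filter, which favours rises at that level. Among genes under 1 TPM in N2, the median log2 fold change in spo-11 was 1.35 for 456 X chromosome genes and 1.82 for 2995 autosomal genes, and between 1 and 5 TPM it was 1.43 for 513 X chromosome genes and 1.49 for 2119 autosomal genes. Between 5 and 20 TPM it was 0.89 for 493 X chromosome genes and 0.70 for 1625 autosomal genes. Between 20 and 100 TPM the medians had opposite signs, 0.99 for 194 X chromosome genes and -0.44 for 3392 autosomal genes. At 100 TPM or more they were 0.92 for 65 X chromosome genes and -0.56 for 1646 autosomal genes.

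The htp-3 medians had opposite signs at the same high levels. They were 0.57 for X chromosome genes and 0.50 for autosomal genes under 1 TPM in N2, 0.80 and 0.92 between 1 and 5 TPM, and 0.44 and 0.54 between 5 and 20 TPM, with X chromosome genes first in each pair. Between 20 and 100 TPM they were 0.74 for X chromosome genes and -0.44 for autosomal genes, and at 100 TPM or more 0.77 and -0.48. In dsb-2 the medians lay between -0.04 and 0.03 for X chromosome genes at every level and between -0.04 and 0.08 for autosomal genes.

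The calls show the same split. Between 20 and 100 TPM in N2, 139 X chromosome genes were called higher and 18 lower in spo-11, where 402 autosomal genes were higher and 1604 lower. In htp-3 that level had 128 X chromosome genes higher and 25 lower, and 318 autosomal genes higher and 1450 lower. At 100 TPM or more, 47 X chromosome genes were higher and 5 lower in spo-11, and 166 autosomal genes were higher and 1055 lower. The level and the fold change share the N2 libraries. With the level taken from N2 replicate 1 and the fold change from N2 replicates 2 and 3, the spo-11 medians between 20 and 100 TPM were 0.92 for X chromosome genes and -0.47 for autosomal genes. These high levels held 11.3% and 3.78% of the X chromosome genes tested, and 28.8% and 13.98% of the autosomal genes tested.

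**Figure D2:**
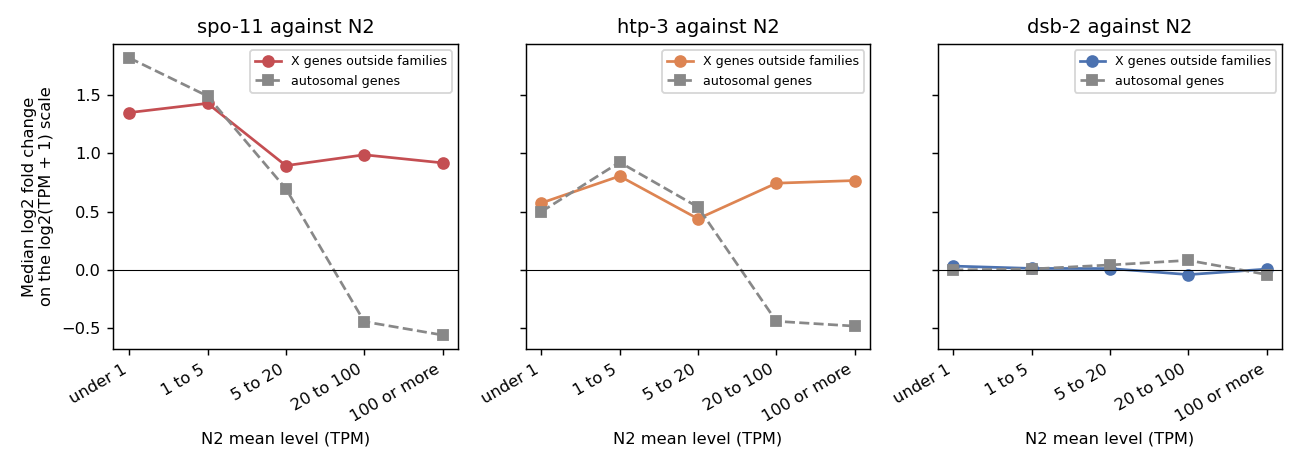
Median log2 fold change against N2, on the log2(TPM + 1) scale, by mean N2 level in TPM, for X chromosome genes outside large families (filled circles, solid line) and autosomal genes (squares, dashed line), in 1 panel per mutant strain. From 20 TPM upwards the circles stay above 0 in spo-11 and htp-3, at 0.74 to 0.99, and the squares lie below 0, at -0.56 to -0.44. Genes of the lowest level needed libraries of other strains to pass the filter, which favours rises there.

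Along the chromosome the median was above 0 in each fixed window, in spo-11 and in htp-3. In 18 windows of 1 megabase, with 65 to 117 tested genes each, the median log2 fold change in spo-11 ran from 0.88 in the second window to 1.40 in the fourth. In htp-3 it ran from 0.48 in the first window to 0.83 in the fourth. In windows of 2 megabases the lowest spo-11 median was 0.99, at the left end. Positions are those of the authors' tables on build WBcel235, and no window's median was tested against another's.

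The second window, X:1000001-2000000, held the most lower genes. Of its 73 tested genes, 46 were called higher and 12 lower in spo-11, and 36 higher and 12 lower in htp-3. Over the X chromosome genes tested, 3.54% were called lower in spo-11 and 3.89% in htp-3. Over all genes tested, 22.1% were called lower in spo-11 and 19.7% in htp-3, both above the percentage in this window. The third window had 77 higher and 0 lower of 93 in spo-11, and the eleventh 78 higher and 0 lower of 93.

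**Figure D3:**
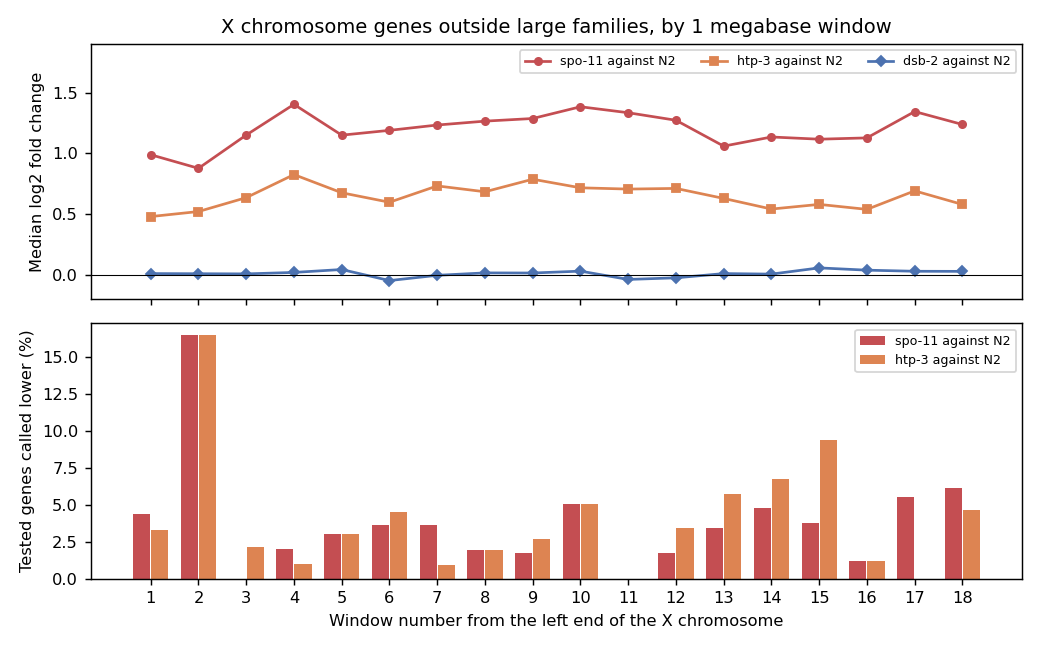
The upper panel plots the median log2 fold change against N2 of the tested X chromosome genes in windows of 1 megabase, numbered from the left end, for the 3 mutant strains, and the lower panel the percentage of tested genes called lower. The spo-11 line lies between 0.88 and 1.40, the htp-3 line between 0.48 and 0.83 and the dsb-2 line near 0, and the bars are tallest in window 2.

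Within that window lies a stretch from meg-4 to meg-3 (X:1682954-1989607) that was singled out after its values were seen, so its counts are a description. It holds 45 genes, of which 14 were tested. In spo-11 2 rose and 7 fell, at a median log2 fold change of -0.52, and in htp-3 1 was higher and 9 lower, with a median of -0.82. In dsb-2 none was called and the median was 0.05. MEG-3 and MEG-4 are proteins of the germ granules of the early embryo, made from maternal RNA. For meg-4 (X:1682954-1686419) the values were 11.16, 10.5 and 9.63 TPM in spo-11 libraries, 6.23, 14.1 and 9.81 TPM in htp-3 libraries, 16.99, 19.7 and 26.8 TPM in dsb-2 libraries, against 18.6, 20.7 and 17.1 TPM in N2 libraries. Each spo-11 and htp-3 library was below each N2 library for this gene, as the rule that named it required. The log2 fold changes of meg-4 were -0.79 ± 0.25 in spo-11 (SE, limma adjusted p = 0.00911) and -0.90 ± 0.25 in htp-3 (adjusted p = 0.00674).

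For meg-3 (X:1986429-1989607) the values were 21.4, 22.8 and 19.4 TPM in spo-11 libraries, 11.06, 23.4 and 16.4 TPM in htp-3 libraries, 37.3, 33.2 and 48.8 TPM in dsb-2 libraries, against 31.6, 34.4 and 31.05 TPM in N2 libraries. The log2 fold change was -0.95 ± 0.23 in htp-3 (SE, limma adjusted p = 0.00288) and -0.59 ± 0.23 in spo-11 (adjusted p = 0.029). The spo-11 call was lost without N2 replicate 1, N2 replicate 2, spo-11 replicate 1 or spo-11 replicate 3, with adjusted p-values of 0.0549 to 0.0899. A related gene elsewhere on the X chromosome, meg-1 (X:13927036-13929634), averaged 60.2 ± 4.76 TPM in spo-11, 41.6 ± 15.8 TPM in htp-3 and 77.7 ± 2.62 TPM in N2. It was called lower in htp-3, at -0.96 ± 0.23 (limma adjusted p = 0.00254), and not in spo-11, at -0.37 ± 0.23 (adjusted p = 0.15). In spo-11 meg-1 was called lower under median-of-ratios scaling, at -1.06 over all genes (adjusted p = 0.000523) and -0.79 over autosomal genes (adjusted p = 0.00353), and in a fit of the 2 strains alone (adjusted p = 0.0127). The fold change of meg-1 between htp-3 and spo-11 was -0.59 ± 0.23 (adjusted p = 0.0439), a call lost without htp-3 replicate 1 or 3, without any 1 of the 3 spo-11 libraries, and under both median-of-ratios scalings, among others.

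The same stretch holds genes for regulators of G protein signalling, which speed the return of G proteins to their inactive state. For rgs-9 the mean was 21.3 ± 2.96 TPM in spo-11, 12.8 ± 3.37 TPM in htp-3 and 30.1 ± 6.54 TPM in N2, with a call in htp-3 (log2 fold change -1.18 ± 0.22, SE, limma adjusted p = 0.000499) and none in spo-11 (-0.47 ± 0.22, adjusted p = 0.066). In spo-11 rgs-9 was called lower under median-of-ratios scaling, at -1.14 over all genes (adjusted p = 0.000111) and -0.87 over autosomal genes (adjusted p = 0.000817), with RPKM (adjusted p = 0.0431), in a fit of the 2 strains alone and without N2 replicate 3. The neighbouring rgs-8.1 and rgs-8.2 averaged 18.3 and 18.6 TPM in htp-3 and 32.9 and 32.9 TPM in N2. Their values were nearly the same in each library, so they are uncertain as single genes. Their htp-3 calls were each lost without htp-3 replicate 1 or N2 replicate 1. The genes rgs-10 and rgs-11 lie together at X:14962922-14965976. For rgs-10 the mean was 2.72 ± 0.460 TPM in spo-11, 1.41 ± 0.687 TPM in htp-3 and 3.05 ± 0.584 TPM in N2, called in htp-3 at -0.79 ± 0.23 (limma adjusted p = 0.00823), a call lost without htp-3 replicate 1 (adjusted p = 0.0543), and not in spo-11 at -0.12 ± 0.23 (adjusted p = 0.634). In spo-11 rgs-10 was called under median-of-ratios scaling over all genes, at -0.64 (adjusted p = 0.0101). For rgs-11 the mean was 10.9 ± 2.46 TPM in spo-11, 12.1 ± 3.41 TPM in htp-3 and 19.6 ± 3.08 TPM in N2, with log2 fold changes of -0.81 ± 0.23 in spo-11 (limma adjusted p = 0.00506) and -0.68 ± 0.23 in htp-3 (adjusted p = 0.0209). The htp-3 call of rgs-11 was lost without htp-3 replicate 1, N2 replicate 1 or N2 replicate 2, with adjusted p-values of 0.0620 to 0.104.

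A short stretch near the middle of the chromosome, from kreg-1 to asns-2 (X:8709764-8750969), held the X chromosome gene with the largest called rise in both strains. It too was singled out after its values were seen. Of its 13 genes 12 were tested. In spo-11 11 rose and 0 fell, at a median log2 fold change of 3.28, and in htp-3 10 rose and 0 fell, at a median of 1.39. In dsb-2 none was called, with a median of 0.21. F53A9.8 (X:8718567-8718905), a gene without a gene name, had 1039, 544 and 1039 TPM in spo-11 libraries, 164, 148 and 165 TPM in htp-3 libraries, 12.9, 25.2 and 7.37 TPM in dsb-2 libraries, against 4.72, 8.13 and 7.96 TPM in N2 libraries. The lowest spo-11 library was above the highest htp-3 library, and the lowest htp-3 library was above every dsb-2 and N2 library. For both strains, separation from N2 was required by the rule that named this gene. The log2 fold change was 6.76 ± 0.34 in spo-11 (SE, limma adjusted p = 1.44e-09) and 4.36 ± 0.34 in htp-3 (adjusted p = 7.49e-07).

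Its neighbours moved with it. F53A9.7 averaged 71.8 ± 14.7 TPM in spo-11, 31.7 ± 2.78 TPM in htp-3 and 4.73 ± 2.86 TPM in N2, M02D8.6 averaged 104.02 ± 21.3 TPM in spo-11, 70.3 ± 15.4 TPM in htp-3 and 9.90 ± 1.84 TPM in N2, and F53A9.1 averaged 90.4 TPM in spo-11, 23.6 TPM in htp-3 and 8.39 TPM in N2. At the right end of the stretch, asns-2, which encodes an asparagine synthetase, had 126, 99.2 and 107 TPM in spo-11 libraries, 16.01, 11.1998 and 17.2 TPM in htp-3 libraries, 19.4, 11.97 and 5.62 TPM in dsb-2 libraries, against 11.95, 5.23 and 4.11 TPM in N2 libraries. Its log2 fold change was 3.90 ± 0.37 in spo-11 (SE, limma adjusted p = 1.89e-07). In htp-3 it was 1.06 ± 0.37 (adjusted p = 0.0234), a call lost without htp-3 replicate 1 or 3 or N2 replicate 2 or 3, with no filter and under both median-of-ratios scalings, with adjusted p-values of 0.0548 to 0.120. The single gene of the stretch not called in spo-11, tnt-2, a troponin T gene, averaged 408 TPM in spo-11, 463 TPM in htp-3 and 319 TPM in N2.

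The role lists that follow hold X chromosome genes only. Of all X chromosome genes tested, 80.7% were called higher in spo-11 and 62.8% in htp-3. Over all genes tested it was 55.6% in spo-11 and 39.5% in htp-3. A list near or below the X chromosome percentages does not stand out from the rest of the chromosome, and no list was tested against it. Listed genes that did not pass the filter are not in these counts. For synapses and neurotransmission 22 of 36 listed genes were tested, and for transcription and developmental control 22 of 29. Over 151 tested genes in the 11 lists, 135 were called higher and 3 lower in spo-11, with a median log2 fold change of 1.33, and 112 were higher and 1 lower in htp-3, with a median of 0.84.

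All 13 tested genes of basement membrane and cell adhesion were called higher in spo-11, with a median of 1.40, and 9 of 13 in htp-3, with a median of 0.85. For let-2, which encodes a type IV collagen chain of basement membranes, the values were 154, 158 and 268 TPM in spo-11 libraries, 87.8, 87.9 and 69.6 TPM in htp-3 libraries, 22.3, 39.3 and 37.96 TPM in dsb-2 libraries, against 14.6, 18.03 and 17.3 TPM in N2 libraries. No library of either strain overlapped N2, and the log2 fold changes were 3.42 ± 0.24 in spo-11 (SE, limma adjusted p = 1.07e-08) and 2.23 ± 0.24 in htp-3 (adjusted p = 9.51e-06). The laminin gamma chain gene lam-2 averaged 27.6 ± 3.75 TPM in spo-11, 14.6 ± 2.61 TPM in htp-3 and 2.20 ± 0.442 TPM in N2. The dystroglycan gene dgn-1 averaged 26.8 ± 4.26 TPM in spo-11, 7.86 ± 0.777 TPM in htp-3 and 5.29 ± 0.857 TPM in N2, and was called in spo-11 (2.14) but not in htp-3 (0.50, limma adjusted p = 0.0513). The htp-3 value of dgn-1 was called in 4 alternatives, among them a minimum of 5 TPM (adjusted p = 0.0469).

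All 16 tested genes of the muscle list were called higher in both strains, with a median of 1.67 in spo-11 and 1.08 in htp-3. That list does not hold tnt-2, the troponin T gene given above, which was tested and not called in spo-11. The troponin T gene mup-2 had 398, 492 and 478 TPM in spo-11 libraries, 454, 303 and 339.6 TPM in htp-3 libraries, 122, 174 and 133 TPM in dsb-2 libraries, against 86.8, 125 and 160.5 TPM in N2 libraries, with log2 fold changes of 1.91 ± 0.22 in spo-11 (SE, limma adjusted p = 1.16e-06) and 1.57 ± 0.22 in htp-3 (adjusted p = 5.93e-05). For myo-2, the myosin heavy chain of the pharynx, the mean was 6.79 ± 1.82 TPM in spo-11, 1.96 ± 0.529 TPM in htp-3 and 0.173 ± 0.0581 TPM in N2. For unc-96, which encodes a protein of the body-wall muscle M-line, it was 21.4 ± 1.46 TPM in spo-11, 11.6 ± 2.04 TPM in htp-3 and 4.44 ± 0.756 TPM in N2. Muscle markers from any chromosome, of which 8 of 21 are among the X chromosome genes described here, summed to 10172 to 11778 TPM in spo-11, 7442 to 12286 TPM in htp-3, 4163 to 5339 TPM in dsb-2 and 3968 to 4960 TPM in N2 libraries.

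Of 22 tested genes of synapses and neurotransmission, 20 were called higher and 1 lower in spo-11, with a median of 1.26, and in htp-3 19 rose and 0 fell, at a median of 0.72. Their levels were low. The octopamine receptor gene octr-1 averaged 5.55 ± 0.633 TPM in spo-11, 2.09 ± 0.472 TPM in htp-3 and 0.794 ± 0.0759 TPM in N2, and aex-3, a regulator of the synaptic GTPase RAB-3, averaged 3.66 ± 0.536 TPM in spo-11, 1.51 ± 0.184 TPM in htp-3 and 0.361 ± 0.147 TPM in N2. The stomatin gene unc-1 averaged 13.6 ± 0.720 TPM in spo-11, 6.32 ± 1.02 TPM in htp-3 and 2.20 ± 0.859 TPM in N2. The gene called lower was dop-4, a dopamine receptor, with 0.851, 0.752 and 0.538 TPM in spo-11 libraries, 1.82, 3.13 and 2.17 TPM in htp-3 libraries, 1.47, 2.52 and 2.04 TPM in dsb-2 libraries, against 1.02, 2.71 and 2.44 TPM in N2 libraries; its log2 fold change was -0.79 ± 0.23 in spo-11 (SE, limma adjusted p = 0.0061) and 0.17 ± 0.23 in htp-3 (adjusted p = 0.536). Neuron markers from any chromosome, 2 of 24 of them among the X chromosome genes described here, summed to 836 to 1078 TPM in spo-11, 503 to 598 TPM in htp-3, 373 to 384 TPM in dsb-2 and 287 to 369 TPM in N2 libraries. The part of a change in tissue proportions in these groups was not tested.

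Innexins form the gap junctions of invertebrates. Of 6 tested, 4 were called higher in each of the 2 strains, and inx-2 and inx-3 in neither. The gene inx-5 averaged 26.1 ± 3.22 TPM in spo-11, 18.4 ± 3.94 TPM in htp-3 and 5.27 ± 0.699 TPM in N2, and unc-9 averaged 5.83 ± 0.653 TPM in spo-11, 2.70 ± 0.600 TPM in htp-3 and 0.763 ± 0.343 TPM in N2. Of 8 X chromosome genes of cilia and intraflagellar transport 4 were tested, and all 4 were called higher in spo-11 and 2 in htp-3. Among them dyf-7, needed to anchor sensory dendrites, averaged 3.92 ± 0.474 TPM in spo-11, 1.76 ± 0.415 TPM in htp-3 and 0.435 ± 0.0487 TPM in N2, and osm-1, an intraflagellar transport gene, averaged 2.76 ± 0.351 TPM in spo-11, 1.41 ± 0.434 TPM in htp-3 and 1.30 ± 0.306 TPM in N2. The htp-3 value of osm-1 was 0.06 on the log2 scale (limma adjusted p = 0.79). Its spo-11 value was 0.71 (adjusted p = 0.00211), a call lost when libraries were scaled by the median of ratios over all genes (adjusted p = 0.152). Another of the 4, dyf-6, had 1.43, 1.15 and 1.73 TPM in spo-11 libraries and stayed under 1 TPM in every other library. Thus dyf-6 passed the filter through the spo-11 libraries alone.

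Of 21 tested genes for intestinal enzymes, filaments and ABC transporters, 19 were called higher and 1 lower in spo-11, with a median of 1.74, and 17 higher and 1 lower in htp-3, with a median of 0.95. The P-glycoprotein transporter gene pgp-8 had 5.38, 6.68 and 11.18 TPM in spo-11 libraries, 0.315, 0.393 and 1.14 TPM in htp-3 libraries, 0.0559, 0.152 and 0.0426 TPM in dsb-2 libraries, against 0.106, 0.165 and 0.0675 TPM in N2 libraries. All 3 spo-11 libraries stood above the others, a difference on the log2 scale of 2.92 ± 0.23 (SE, limma adjusted p = 2.24e-08), and in htp-3 it was 0.50 ± 0.23 (adjusted p = 0.0659). That htp-3 value of pgp-8 rests on the pseudocount: rebuilt reads tested by limma-voom gave 2.22 (adjusted p = 0.0102) and a pseudocount of 0.1 gave 1.60 (adjusted p = 0.00697), both called, as it was with the replicate block and in a fit of the 2 strains alone. For ifc-2, an intermediate filament gene of the intestine, the mean was 119.6 ± 21.2 TPM in spo-11, 76.5 ± 11.3 TPM in htp-3 and 20.5 ± 3.40 TPM in N2. The gene called lower in both was mrp-4, an ABC transporter, with 29.1, 34.3 and 30.6 TPM in spo-11 libraries, 21.6, 61.6 and 31.1 TPM in htp-3 libraries, 73.3, 99.0 and 128 TPM in dsb-2 libraries, against 55.5, 73.4 and 64.99 TPM in N2 libraries. Its log2 fold change was -1.02 ± 0.29 in spo-11 (limma adjusted p = 0.00528) and -0.87 ± 0.29 in htp-3 (adjusted p = 0.0195). The htp-3 call of mrp-4 was lost without htp-3 replicate 1 or 3 or N2 replicate 2, with adjusted p-values of 0.0633 to 0.111. Intestinal markers from any chromosome summed to 8875 to 11837 TPM in spo-11, 6367 to 9617 TPM in htp-3, 3406 to 3760 TPM in dsb-2 and 3227 to 4171 TPM in N2 libraries, with 7 of 18 tested called higher and 4 lower in spo-11, and 10 higher and 1 lower in htp-3.

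Of 12 tested genes of body shape and growth factor signalling, 11 were called higher in spo-11 and 6 in htp-3, with a median of 1.21 in spo-11 and 0.52 in htp-3. The fibroblast growth factor receptor gene egl-15 averaged 5.60 ± 1.24 TPM in spo-11, 1.96 ± 0.247 TPM in htp-3 and 0.386 ± 0.171 TPM in N2, and sma-5, a MAP kinase gene that affects body size, averaged 28.5 ± 4.57 TPM in spo-11, 13.3 ± 1.46 TPM in htp-3 and 3.43 ± 1.81 TPM in N2. Hypodermis markers from any chromosome summed to 1483 to 1808 TPM in spo-11, 2435 to 3948 TPM in htp-3, 642 to 779 TPM in dsb-2 and 700 to 918 TPM in N2 libraries, with 9 of 11 tested called higher and 1 lower in spo-11, and 4 higher and 2 lower in htp-3 (median log2 fold change 1.35 in spo-11 and 0.12 in htp-3). Of 22 tested genes of transcription and developmental control, 20 were called higher in spo-11 and 15 in htp-3, with a median of 1.32 in spo-11 and 0.85 in htp-3. The heterochronic regulator lin-14 averaged 10.2 ± 1.14 TPM in spo-11, 4.94 ± 0.459 TPM in htp-3 and 2.12 ± 0.740 TPM in N2. The cytochrome P450 gene daf-9, which makes the dafachronic acid hormones, averaged 3.597 ± 0.292 TPM in spo-11, 1.04 ± 0.164 TPM in htp-3 and 0.346 ± 0.0772 TPM in N2. The homeobox gene alr-1 averaged 2.83 ± 0.203 TPM in spo-11, 0.838 ± 0.054 TPM in htp-3 and 0.567 ± 0.0591 TPM in N2, called in spo-11 (1.29) and not in htp-3 (0.23, limma adjusted p = 0.172). It reached 1 TPM only in spo-11 libraries, so it passed the filter through them alone.

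Of 12 tested for trafficking, the cytoskeleton and the nuclear envelope, 11 were higher in spo-11 and 6 in htp-3, with a median of 1.00 in spo-11 and 0.47 in htp-3. Over all 1721 X chromosome genes tested the percentage called higher was 80.7% in spo-11 and 62.8% in htp-3. The non-muscle myosin gene nmy-1 had 147, 121 and 179 TPM in spo-11 libraries, 60.9, 45.5 and 64.3 TPM in htp-3 libraries, 14.4, 21.3 and 22.7 TPM in dsb-2 libraries, against 10.7, 15.6 and 11.4 TPM in N2 libraries. Its log2 fold change was 3.46 ± 0.22 in spo-11 (SE, limma adjusted p = 5.95e-09) and 2.09 ± 0.22 in htp-3 (adjusted p = 7.84e-06). Of 14 tested for RNA processing, translation and chromatin, 11 were higher in spo-11 and 10 in htp-3, with a median of 1.21 in spo-11 and 0.59 in htp-3. The translation elongation factor gene eef-1A.2 averaged 587 ± 24.8 TPM in spo-11, 363 ± 44.4 TPM in htp-3, 134 ± 15.4 TPM in dsb-2 and 118 ± 27.8 TPM in N2. The ribosomal protein gene rpl-11.2 averaged 1536 ± 163 TPM in spo-11, 1333 ± 257 TPM in htp-3, 451 ± 85.8 TPM in dsb-2 and 448 ± 37.7 TPM in N2. Both have an autosomal partner of similar sequence, and reads shared with it cannot be told apart.

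Of 15 tested genes of energy, lipid and small-molecule metabolism, 12 were called higher and 1 lower in spo-11, with a median of 1.08, and 13 higher and none lower in htp-3, with a median of 0.85. The trehalose synthesis gene tps-1 averaged 17.4 ± 2.18 TPM in spo-11, 9.04 ± 0.724 TPM in htp-3 and 2.97 ± 0.321 TPM in N2, and aco-1, the cytosolic aconitase gene, averaged 115.2 ± 6.71 TPM in spo-11, 98.5 ± 1.43 TPM in htp-3 and 50.2 ± 7.47 TPM in N2. The 3 fatty acid-binding protein genes lbp-3, lbp-1 and lbp-2 lie in a row at X:3257010-3261470 and did not move alike. The gene lbp-1 averaged 289 ± 56.5 TPM in spo-11, 127 ± 26.1 TPM in htp-3 and 56.7 ± 10.3 TPM in N2, and lbp-2 averaged 1337 ± 315 TPM in spo-11, 979 ± 236 TPM in htp-3 and 564 ± 23.4 TPM in N2. The values of lbp-3, the gene called lower in spo-11, are given with the opposite genes.

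**Figure D4:**
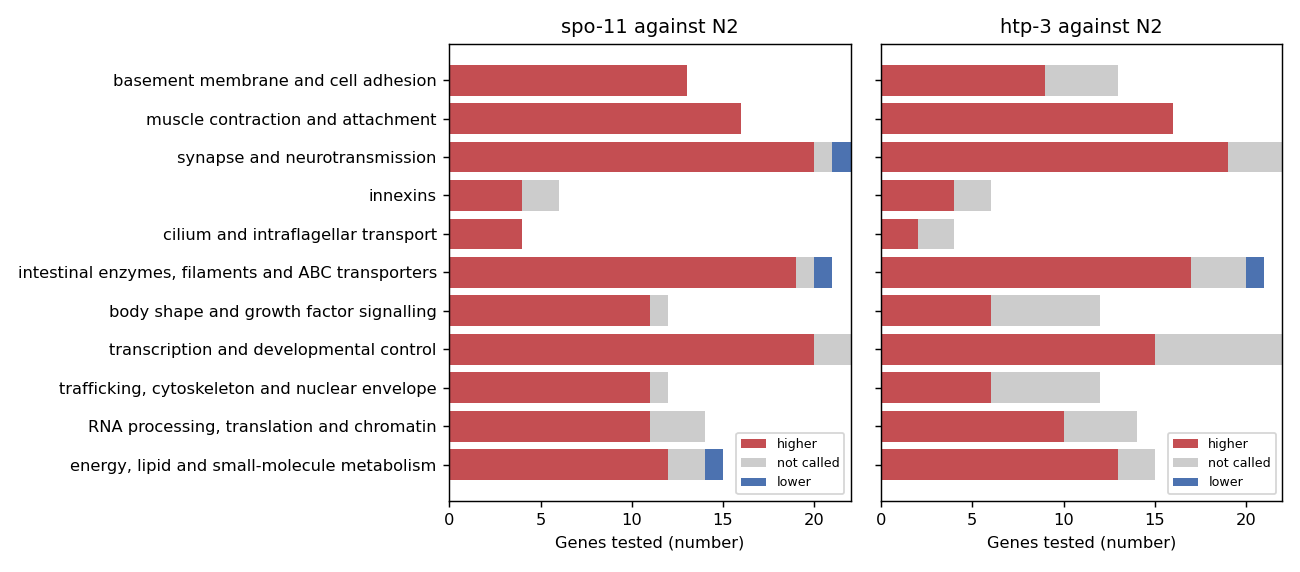
Number of tested X chromosome genes called higher (red), not called (grey) or lower (blue) against N2, at a limma adjusted p under 0.05, in 11 lists of genes by role, for spo-11 (left) and htp-3 (right). Bars of basement membrane and muscle genes are red throughout in spo-11, and 4 genes of basement membrane and cell adhesion are grey in htp-3.

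Among genes with a gene name, the largest called rises in spo-11 began with oac-14 and ttr-14. The acyltransferase-like gene oac-14 (X:10139374-10142013) had 72.4, 54.5 and 129 TPM in spo-11 libraries, 32.3, 18.1 and 20.4 TPM in htp-3 libraries, 2.52, 6.85 and 1.37 TPM in dsb-2 libraries, against 1.43, 1.95 and 0.498 TPM in N2 libraries, and its log2 fold change was 5.20 ± 0.41 in spo-11 (SE, limma adjusted p = 2.83e-08) and 3.44 ± 0.41 in htp-3 (adjusted p = 2.03e-05). The transthyretin-related gene ttr-14 had 102, 89.1 and 152.3 TPM in spo-11 libraries, 11.8, 12.4 and 25.7 TPM in htp-3 libraries, 2.99, 5.31 and 3.20 TPM in dsb-2 libraries, against 2.87, 6.38 and 4.15 TPM in N2 libraries. All spo-11 libraries were above all htp-3 libraries, which were above all others. Separation of spo-11 from N2 and from htp-3 was required by the rule that named ttr-14. The log2 fold change of ttr-14 was 4.42 ± 0.32 in spo-11 (adjusted p = 1.3e-08) and 1.65 ± 0.32 in htp-3 (adjusted p = 0.000641). Its neighbour vap-2 overlaps it by position, so reads in the overlap cannot be told apart, and averaged 18.8 ± 8.05 TPM in spo-11, 2.96 ± 2.30 TPM in htp-3 and 0.272 ± 0.156 TPM in N2.

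Also among the 8 largest were asns-2, given above, and abf-6 and abf-5, neighbouring genes for antibacterial factor-like peptides at X:12792727-12794870. The gene abf-6 averaged 18.8 ± 6.17 TPM in spo-11, 1.86 ± 0.760 TPM in htp-3 and 0.206 ± 0.134 TPM in N2, and abf-5 averaged 18.4 ± 4.92 TPM in spo-11, 1.62 ± 0.371 TPM in htp-3 and 0.415 ± 0.152 TPM in N2. The neuropeptide gene snet-1 averaged 24.03 ± 5.38 TPM in spo-11, 4.87 ± 1.76 TPM in htp-3 and 0.865 ± 0.0629 TPM in N2, and cebp-1, a bZIP transcription factor gene with a role in axon regeneration, averaged 60.5 ± 9.18 TPM in spo-11, 29.6 ± 2.82 TPM in htp-3 and 4.45 ± 1.16 TPM in N2. Their log2 fold changes in spo-11 were 3.997 for abf-6, 3.75 for abf-5, 3.72 for snet-1 and 3.51 for cebp-1, and in htp-3 1.22, 0.89, 1.61 and 2.51 in the same order, all called. With a pseudocount of 5 the htp-3 call of abf-5 was lost (limma adjusted p = 0.0609). Among genes with a sequence name only, C45B2.2 averaged 72.8 ± 20.7 TPM in spo-11, 8.90 ± 6.96 TPM in htp-3 and 1.72 ± 1.04 TPM in N2. B0563.9 had 31.2, 15.8 and 49.7 TPM in spo-11 libraries and 0.720, 0 and 1.81 TPM in htp-3 libraries, and was listed at 0 in all 3 N2 libraries.

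In htp-3 the largest called rises among named genes were those of cebp-1 and oac-14, given above, and of the genes that follow. The acid sphingomyelinase gene asm-2 had 27.96, 36.3 and 28.4 TPM in spo-11 libraries, 23.9, 39.1 and 38.4 TPM in htp-3 libraries, 2.73, 3.82 and 2.57 TPM in dsb-2 libraries, against 2.20, 4.76 and 3.596 TPM in N2 libraries, with log2 fold changes of 2.95 ± 0.26 in htp-3 (SE, limma adjusted p = 1.48e-06) and 2.85 ± 0.26 in spo-11 (adjusted p = 1e-07). The spo-11 and htp-3 libraries overlapped and lay above all dsb-2 and N2 libraries. For htp-3 against N2 this was required by the rule that named asm-2. For irg-7, a gene of the immune response known for its role in the long life of animals without a germline, the values were 92.0, 114 and 152.3 TPM in spo-11 libraries, 242, 279.9 and 156 TPM in htp-3 libraries, 31.6, 48.5 and 68.9 TPM in dsb-2 libraries, against 20.3, 36.1 and 39.7 TPM in N2 libraries. The log2 fold change was 2.79 ± 0.31 in htp-3 (adjusted p = 1.03e-05) and 1.89 ± 0.31 in spo-11 (adjusted p = 4.36e-05). Between htp-3 and spo-11 it was 0.90 ± 0.31 (adjusted p = 0.0249), a call lost without htp-3 replicate 1 or 2 or spo-11 replicate 1 or 2. For lfi-1, named for its protein's binding to LIN-5, the mean was 21.4 ± 3.73 TPM in spo-11, 31.7 ± 5.35 TPM in htp-3 and 4.22 ± 1.42 TPM in N2, with log2 fold changes of 2.67 ± 0.29 in htp-3 (adjusted p = 9.9e-06) and 2.13 ± 0.29 in spo-11 (adjusted p = 8.29e-06). The claudin-like gene clc-1 averaged 73.2 ± 9.28 TPM in spo-11, 103.8 ± 13.8 TPM in htp-3 and 16.9 ± 3.80 TPM in N2, set-30, a SET domain gene, averaged 25.3 ± 3.90 TPM in spo-11, 13.6 ± 1.01 TPM in htp-3 and 1.44 ± 0.546 TPM in N2, and lact-1, a gene of the beta-lactamase domain family, averaged 25.9 ± 1.58 TPM in spo-11, 15.5 ± 2.76 TPM in htp-3 and 1.80 ± 1.01 TPM in N2. F09C8.1, without a gene name, averaged 31.2 ± 9.51 TPM in spo-11, 55.7 ± 9.84 TPM in htp-3 and 6.01 ± 0.338 TPM in N2.

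**Figure D5:**
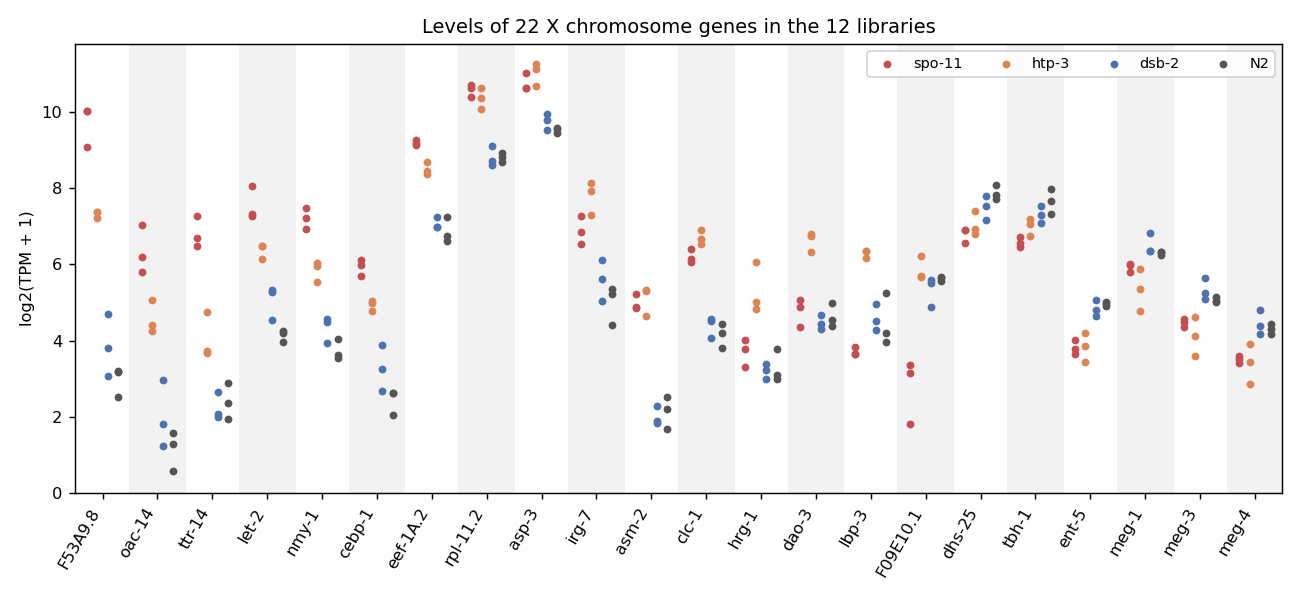
Levels of 22 X chromosome genes in the 12 libraries, on the log2(TPM + 1) scale, with 1 column per gene and strains from left to right as spo-11, htp-3, dsb-2 and N2. Each point is a library. F53A9.8 to clc-1 lie higher in spo-11 and htp-3 than in N2, dao-3 and lbp-3 lie highest in htp-3, F09E10.1 lies lowest in spo-11, and the genes to its right lie lower in spo-11 and htp-3.

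In all, 16 X chromosome genes in spo-11 and 10 in htp-3 were called with a log2 fold change of -1 or below, where 1059 in spo-11 and 496 in htp-3 were called at 1 or above. Of all 13650 genes tested, called or not, 883 in spo-11 and 281 in htp-3 were at -1 or below. At 1 or above were 6195 in spo-11 and 2865 in htp-3, so rises outnumbered falls over all genes too. The nucleoside transporter gene ent-5 had 12.8, 15.1 and 11.6 TPM in spo-11 libraries, 9.82, 17.5 and 13.4 TPM in htp-3 libraries, 26.98, 24.1 and 32.7 TPM in dsb-2 libraries, against 31.3, 30.1 and 29.2 TPM in N2 libraries, and its log2 fold change was -1.15 ± 0.21 in spo-11 (SE, limma adjusted p = 0.000132) and -1.13 ± 0.21 in htp-3 (adjusted p = 0.000467). The short-chain dehydrogenase gene dhs-25 averaged 109.9 ± 14.05 TPM in spo-11, 133 ± 30.6 TPM in htp-3 and 234.7 ± 31.8 TPM in N2, with -1.09 in spo-11 and -0.83 in htp-3. For tbh-1, which encodes tyramine beta-hydroxylase, the enzyme that makes octopamine, the values were 105, 87.4 and 93.1 TPM in spo-11 libraries, 106, 132 and 144 TPM in htp-3 libraries, 155, 136 and 184 TPM in dsb-2 libraries, against 254, 203 and 159 TPM in N2 libraries. No spo-11 or htp-3 library of tbh-1 overlapped N2, which the rule that named it required for spo-11 only. The log2 fold changes of tbh-1 were -1.08 ± 0.19 in spo-11 (adjusted p = 7.69e-05) and -0.67 ± 0.19 in htp-3 (adjusted p = 0.00652). The pantothenate kinase gene pnk-4 averaged 7.35 ± 1.13 TPM in spo-11, 6.64 ± 0.364 TPM in htp-3 and 14.6 ± 2.86 TPM in N2.

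The choline transporter-like gene chtl-1 averaged 15.5 ± 2.66 TPM in spo-11, 13.1 ± 3.83 TPM in htp-3 and 23.9 ± 1.58 TPM in N2. It was called in htp-3 (-0.85, limma adjusted p = 0.00724) and in spo-11 (-0.61, adjusted p = 0.0302), and the spo-11 call was lost without spo-11 replicate 3 or any 1 of the 3 N2 libraries. Of genes without a gene name, F02E8.4 averaged 17.2 ± 2.35 TPM in spo-11, 22.4 ± 8.92 TPM in htp-3 and 48.7 ± 3.41 TPM in N2, R09F10.8 averaged 50.2 ± 6.88 TPM in spo-11, 46.9 ± 11.3 TPM in htp-3 and 109.6 ± 22.2 TPM in N2, and C09B8.4 averaged 8.34 ± 4.27 TPM in spo-11, 10.2 ± 4.65 TPM in htp-3 and 22.1 ± 2.79 TPM in N2, with an htp-3 call of C09B8.4 that was lost without htp-3 replicate 1 or N2 replicate 1. F09E10.1 fell in spo-11 and was not called in htp-3: it had 9.17, 7.86 and 2.48 TPM in spo-11 libraries, 73.7, 50.3 and 50.7 TPM in htp-3 libraries, 47.3, 44.6 and 28.7 TPM in dsb-2 libraries, against 49.7, 46.5 and 48.7 TPM in N2 libraries. Its log2 fold change was -2.86 ± 0.33 in spo-11 (limma adjusted p = 1.17e-06) and 0.24 ± 0.33 in htp-3 (adjusted p = 0.531), and between htp-3 and spo-11 it was 3.102 ± 0.33 (adjusted p = 1.15e-06).

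Genes called lower were shorter, and genes called either way differed in their N2 level. The median span was 1622 bases for the 61 genes lower in spo-11, 3013 bases for the 1389 higher and 2366 bases for the 271 not called. The median number of exons was 5 for the lower genes and 8 for the higher genes in spo-11, and likewise 5 and 8 in htp-3. The median N2 level was 14.4 TPM for genes lower in spo-11 and 2.63 TPM for genes higher, and 18.8 TPM for genes lower in htp-3 and 2.84 TPM for genes higher. A gene name written as letters, a hyphen and a number was carried by 26.2% of the genes lower in spo-11 and 48.5% of those higher. These are descriptions without a test. The N2 level is part of the fold change.

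The gene with a gene name called in opposite directions was lbp-3, which encodes a fatty acid-binding protein. It had 13.2, 11.6 and 11.6 TPM in spo-11 libraries, 70.5, 80.3 and 81.4 TPM in htp-3 libraries, 18.4, 30.4 and 21.997 TPM in dsb-2 libraries, against 14.7, 37.1 and 17.3 TPM in N2 libraries, so that every htp-3 library was above every other library and every spo-11 library was below every N2 library. Separation of spo-11 from N2 and from htp-3 was required by the rule that named lbp-3. The log2 fold change was 1.82 ± 0.28 in htp-3 (SE, limma adjusted p = 0.000116) and -0.76 ± 0.28 in spo-11 (adjusted p = 0.0203). The spo-11 call was lost without N2 replicate 2, spo-11 replicate 2 or spo-11 replicate 3, with adjusted p-values of 0.0530 to 0.138. Between htp-3 and spo-11 the log2 fold change was 2.58 ± 0.28 (adjusted p = 1.42e-06). The other genes higher in htp-3 and lower in spo-11, which were named after their values were seen, were F22F4.5, R03G8.4, F22H10.6 and F41C6.4. Of these F22F4.5 averaged 9.68 ± 2.21 TPM in spo-11, 39.96 ± 9.82 TPM in htp-3 and 14.4 ± 2.35 TPM in N2, and its spo-11 call and that of R03G8.4 were each lost without several single libraries of spo-11 and N2. F13C5.1 was higher in spo-11 and lower in htp-3, averaging 8.80 ± 3.13 TPM in spo-11, 1.72 ± 0.350 TPM in htp-3 and 3.87 ± 0.268 TPM in N2, and its spo-11 call was lost under median-of-ratios scaling over all genes (adjusted p = 0.131).

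Set directly against spo-11, htp-3 animals had lower levels of most X chromosome genes that differed. Of the 1721 genes, 61 were called higher and 893 lower in htp-3 than in spo-11, with 8.1% of all genes tested called higher and 38.6% lower. The median log2 fold change was -0.55 over the X chromosome genes, -0.27 over autosomal genes and -0.32 over all genes tested. The 893 lower genes became 543 without spo-11 replicate 1 and 590 without spo-11 replicate 3. Under median-of-ratios scaling over all genes, 141 were higher and 551 lower, with a median over all genes tested of -0.02. The comparison shares its libraries with those against N2.

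Among genes with a gene name, lbp-3 and dao-3 stood furthest above spo-11. The gene dao-3, which encodes an enzyme of folate metabolism, had 79.6, 109.7 and 107 TPM in htp-3 libraries, 32.2, 28.6 and 19.6 TPM in spo-11 libraries, against 19.7, 30.7 and 22.2 TPM in N2 libraries, and its log2 fold change against spo-11 was 1.86 ± 0.22 (SE, limma adjusted p = 4.6e-06). The heme transporter gene hrg-1 had 66.3, 27.4 and 31.5 TPM in htp-3 libraries, 15.2, 8.82 and 12.9 TPM in spo-11 libraries, against 7.60, 12.7 and 6.92 TPM in N2 libraries, with 1.61 ± 0.31 (adjusted p = 0.000538). In both, every htp-3 library was above every spo-11 and N2 library, and spo-11 overlapped N2. Separation of htp-3 from spo-11 was required by the rule that named these genes. The gene hpo-34 and the otopetrin-like gene otpl-3 differed by 1.22 and 1.05. Furthest below spo-11 were abf-5 at -2.87, asns-2 at -2.84, abf-6 at -2.78, ttr-14 at -2.76 and gpx-3, a glutathione peroxidase gene, at -2.67. The gene gpx-3 averaged 1.06 ± 0.665 TPM in htp-3 and 11.7 ± 1.80 TPM in spo-11, and its N2 mean was 0.185 ± 0.0956 TPM. Over the 151 genes of the role lists, 5 were called higher and 83 lower in htp-3 than in spo-11.

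In dsb-2, 1 of the 1721 X chromosome genes was called higher than in N2 and none lower, with 0.19% of all genes tested called higher and 0.0733% lower. At an unadjusted p under 0.05, limma had 125 of the 1721 genes, next to 1305 of 11777 autosomal genes and 1448 of all 13650 genes tested. Among the X chromosome genes, limma-voom on rebuilt reads called 1 higher and 0 lower at an adjusted p under 0.05. The median log2 fold change was 0.02 over the X chromosome genes and 0.02 over autosomal genes, and none of the 151 genes of the role lists was called. The gene called was H11L12.1 (X:17710286-17711674), with 5.54, 6.74 and 5.42 TPM in spo-11 libraries, 6.07, 9.0 and 5.95 TPM in htp-3 libraries, 13.7, 17.98 and 19.5 TPM in dsb-2 libraries, against 5.50, 4.74 and 5.47 TPM in N2 libraries. All 3 dsb-2 libraries were above the other 9, and the log2 fold change was 1.52 ± 0.21 (SE, limma adjusted p = 0.00228). Fitted on the dsb-2 and N2 libraries alone, it was not called (adjusted p = 0.0706). Of the genes named above, let-2 averaged 33.2 ± 9.46 TPM in dsb-2 and 16.7 ± 1.82 TPM in N2, which differed by 0.92 ± 0.24 on the log2 scale (adjusted p = 0.303), and lam-2 averaged 5.38 ± 1.41 TPM in dsb-2 and 2.20 ± 0.442 TPM in N2, which differed by 0.98 ± 0.22 (adjusted p = 0.137). Under median-of-ratios scaling lam-2 was called in dsb-2, at 1.03 over all genes (adjusted p = 0.0442) and 1.01 over autosomal genes (adjusted p = 0.049).

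The 10 highest N2 means among the X chromosome genes ran from 480.2 TPM for ule-5 to 1311 TPM for ilys-5, an invertebrate-type lysozyme gene. For ilys-5 the mean was 1719 ± 473 TPM in spo-11, 1912 ± 280.4 TPM in htp-3 and 1311 ± 373 TPM in N2, with a log2 fold change of 0.40 ± 0.22 in spo-11 (limma adjusted p = 0.111) and 0.58 ± 0.22 in htp-3 (adjusted p = 0.0358), an htp-3 call lost without N2 replicate 1, htp-3 replicate 2 or htp-3 replicate 3 and under both median-of-ratios scalings. The cathepsin B-like protease gene cpr-6 averaged 1002 ± 166 TPM in spo-11, 1061 ± 162 TPM in htp-3 and 870.2 ± 216 TPM in N2, not called in either strain. The aspartyl protease gene asp-3 averaged 1757 ± 298 TPM in spo-11, 2112 ± 416 TPM in htp-3 and 741 ± 34.6 TPM in N2, with 1.23 ± 0.17 in spo-11 (adjusted p = 6.69e-06, lost under median-of-ratios scaling over all genes at 0.0565) and 1.49 ± 0.17 in htp-3 (adjusted p = 1.17e-05). The myosin light chain gene mlc-2 averaged 1631 ± 135 TPM in spo-11, 1644 ± 573 TPM in htp-3 and 934 ± 79.2 TPM in N2, and both of its calls were lost under both median-of-ratios scalings.

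F46H5.3 averaged 2012 ± 231 TPM in spo-11, 1286 ± 383 TPM in htp-3 and 623 ± 55.8 TPM in N2, ZC373.2 averaged 1093 ± 279.7 TPM in spo-11, 1043 ± 234 TPM in htp-3 and 488 ± 123 TPM in N2, and ule-5, named for its protein in the uterine lumen, averaged 1159.8 ± 395 TPM in spo-11, 1068 ± 172 TPM in htp-3 and 480.2 ± 167 TPM in N2. Y62H9A.5, the left neighbour of ule-5, averaged 1776 ± 813 TPM in spo-11, 1484 ± 384 TPM in htp-3 and 895 ± 181 TPM in N2. The spo-11 calls of Y62H9A.5, ZC373.2 and ule-5 were lost under median-of-ratios scaling over all genes. F23A7.8 went the other way in spo-11: it averaged 508 ± 105 TPM in spo-11, 1005 ± 353 TPM in htp-3 and 1121 ± 341 TPM in N2, with a log2 fold change of -1.12 ± 0.30 in spo-11 (SE, limma adjusted p = 0.00335) and -0.19 ± 0.30 in htp-3 (adjusted p = 0.603). Without the 10 genes of highest mean level, the difference in TPM share from N2 was 3.68 percentage points in spo-11, against 4.32 percentage points with them.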

How the data were processed

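Each deposited table lists every gene with TPM and RPKM values made by the authors, per the file headers, and a column headed expression value that repeats the RPKM. It also gives each gene's number of exons and length, which the authors deposited beside other annotation (the score was not used). WBcel235 is the genome build per the submitters' processing notes, and aligner and counting method were not given in the sources used here. The tables hold no counts; for all 18042 genes above 0 in 4 or more libraries, the deposited RPKM gave whole reads within 0.05 reads. Log2(TPM + 1) values were fitted in limma 3.58.1 (R 4.3.3), its variance prior following mean level, with a mean per strain over the 12 libraries, and Benjamini-Hochberg adjustment over the 13650 genes with at least 1 TPM in 3 libraries or more. The pseudocount understates fold changes of low genes. Per-library values were compared by exact permutation in SciPy 1.17.1. The procedure was tested on simulated data. The members and lists were chosen with earlier results of these data known. Named genes were the 8 highest and 8 lowest called with a gene name and the 3 highest and 3 lowest without one whose libraries did not overlap N2 and whose higher mean was at least 5 TPM, the 5 highest and 5 lowest between htp-3 and spo-11, 3 per role list by p, and the 10 highest in N2; others were named after their values were seen. Same-numbered spo-11 and htp-3 libraries deviated together (r = 0.12, 0.44 and 0.23 across genes), but htp-3 replicate 3 and spo-11 replicate 1 also had r = 0.14. The main fit used no pairs, and the replicate number entered as a block only in an alternative. Alternatives covered scaling, filter, pseudocount, unit, test and libraries. Promoter sequences were not used here.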

Additional observations from a re-analysis of the deposited data

How the results depend on the processing

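Under every alternative, genes called higher outnumbered genes called lower in spo-11 and in htp-3 against N2. The reverse held for htp-3 against spo-11. The median differences from autosomal genes, which carry no test, kept their sign in these comparisons. For dsb-2 that difference was near 0 and took either sign. A minimum of 5 TPM gave 895 genes higher in spo-11 and 526 lower in htp-3 than in spo-11. Median-of-ratios scaling over all genes gave 193 lower in spo-11, 178 lower in htp-3 and, for htp-3 against spo-11, 141 higher and 551 lower. Scaling over autosomal genes gave 122, 132 and 109 higher in the last comparison. A fold change of at least 2 left 16 lower in spo-11, 496 higher and 10 lower in htp-3, and 20 higher and 300 lower in htp-3 than in spo-11. The genes higher in dsb-2 numbered 3 under either scaling, 2 with no filter and 0 in a fit of the dsb-2 and N2 libraries alone.

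The median of the X chromosome genes minus that of autosomal genes was 0.59 for spo-11, and became 1.18 with a minimum of 5 TPM, 0.89 with limma-voom on rebuilt reads, 0.85 with a pseudocount of 0.1 and 0.35 with one of 5. For htp-3 it was 0.45, and became 0.81, 0.65, 0.62 and 0.24 in the same order, and 0.29 with no filter. For dsb-2 it was -0.00061, and became -0.015 with RPKM and -0.011 with a minimum of 5 TPM. Without the 10 genes of highest mean, the share difference of spo-11 from N2 was 3.68 percentage points. Between 20 and 100 TPM the spo-11 median was 0.99, and 0.92 or 1.24 with the level from N2 replicate 1 or from all 12 libraries. Of 6004 values of 95 named genes under alternatives, 5802 kept their call or lack of one, 145 lost a call, 56 gained one and 1 reversed: dao-3 in spo-11 was 0.14 (limma adjusted p = 0.583) and, under median-of-ratios scaling over all genes, -0.54 (adjusted p = 0.0095). The cause of these moves was not tested.

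With 1 library left out at a time, spo-11 had 1198 to 1399 higher and 39 to 59 lower, htp-3 894 to 1082 higher and 35 to 89 lower, dsb-2 1 to 1 higher and 0 to 0 lower, and htp-3 against spo-11 42 to 63 higher and 543 to 817 lower. The median differences were 0.57 to 0.91 for spo-11 (0.91 without spo-11 replicate 2), 0.42 to 0.49 for htp-3, -0.017 to 0.015 for dsb-2 and -0.37 to -0.18 for htp-3 against spo-11 (-0.18 without htp-3 replicate 2, -0.29 with all). The share differences were 4.12 to 4.51, 2.33 to 3.02, -0.222 to -0.000816 and -1.996 to -1.30 percentage points in the same order.

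With the replicate number as a block, 1390 genes were higher and 63 lower in spo-11, 1079 higher and 68 lower in htp-3, 1 higher and 0 lower in dsb-2, and 66 higher and 901 lower in htp-3 than in spo-11. Among named genes the block added calls of clc-1, M02D8.6, inx-5 and lbp-2 between htp-3 and spo-11, and changed no other call there. The labels do not say what a number shares across strains. Same-number correlations with N2 were 0.14, 0.042 and 0.34 for spo-11, -0.10, 0.11 and 0.17 for htp-3 and 0.35, 0.39 and 0.065 for dsb-2.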
